A study of Danio rerio with 20 samples.

Results

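Binding of the Hox factor Hoxb1b and the TALE homeodomain factor Meis2b was compared in zebrafish gastrulae exposed to all-trans retinoic acid (atRA), a vitamin A derivative that activates the nuclear receptors of the RAR family. The libraries compared were 2 ChIP-seq libraries with an antibody to Hoxb1b and 2 with an antibody to Meis2b, that is 4 of the 20 libraries of the series. All were made from whole wild-type embryos at 80% epiboly, late in gastrulation, kept in 0.1 µM atRA from 30% epiboly. Untreated embryos of the same genotype and stage gave 2 control libraries per antibody. Antibodies to the SoxB1 factor Sox3 and to the retinoic acid receptor RARaa gave 2 control and 2 atRA libraries each, so that 16 gastrula libraries were at hand. Peaks on chromosomes 1 to 25 were used. A site of a factor was the union of overlapping peaks of its 2 replicates (at least 1 bp), so that a peak called in a single library made no site. Merging the sites of both factors gave 37100 regions, beside 564183 regions when every peak of the 16 gastrula libraries was merged.

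Hox proteins recognise short, closely similar DNA sequences on their own and gain selectivity by binding together with TALE proteins, the Pbx and Meis families. Hoxb1b is an early Hox factor of the zebrafish gastrula, made in the prospective hindbrain, and its gene responds to retinoic acid. Meis proteins bind DNA themselves and also form complexes with Pbx and Hox proteins. Sox3 marks early neural ectoderm. A whole embryo mixes germ layers, and overlap of peaks does not show that factors occupied the same DNA molecule or the same cell. A peak in bulk chromatin is also silent on how many cells carried it. Neither a genome sequence nor a gene annotation of the build of the lists was used here, so regions are given by position (danRer10, positions counted from 1) and without genes or motifs. Antibody specificity was not checked by these data.

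The 4 lists differed in depth. Hoxb1b replicates 1 and 2 held 86866 and 71640 peaks, and Meis2b replicates 1 and 2 held 58690 and 43644. The background, a depth index in fragments per base, was the 0.001 quantile of the local backgrounds recovered from the values of the called peaks. It was 0.910 and 0.533 for the Hoxb1b libraries and 0.494 and 0.256 for the Meis2b libraries. The control libraries of both antibodies lay between 0.199 and 0.286. Across the 16 gastrula libraries the lists ranged from 23920 to 254915 peaks. The labels do not say whether replicates came from separate clutches, so that every spread and p-value below covers these libraries only and may be technical. No interval was repeated within a list, and replicates had 5 (Hoxb1b) and 4 (Meis2b) intervals that were identical.

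Hoxb1b had 31462 sites, which covered 1.07% of the chromosome span with a median width of 405 bp. Meis2b had 16427 sites over 0.523% of the span, with a median width of 388 bp. Of the peaks of Hoxb1b replicates 1 and 2, 37.6% and 46.2% lay in sites, and of those of Meis2b replicates 1 and 2, 28.7% and 39.0%. The majority of called peaks in each list was thus found in only 1 of the 2 libraries of its antibody and entered no site.

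Most Meis2b sites were also Hoxb1b sites, whereas most Hoxb1b sites were not Meis2b sites. A site of the other factor overlapped 10629 Hoxb1b sites, or 33.8% (95% Wilson interval 33.3% to 34.3%), and 10675 Meis2b sites, or 65.0% (64.3% to 65.7%). These intervals cover counting error only. The 2 counts of shared sites were close, so the factor with the longer list of sites had to have the smaller share. Among all 564183 merged gastrula regions, 5.41% overlapped a Hoxb1b site and 2.87% a Meis2b site. Counted over merged regions, 10515 of 37100 (28.3%) held both factors, 20833 (56.2%) held Hoxb1b sites alone and 5752 (15.5%) held Meis2b sites alone. The order of the 2 shares was not the same under every choice of peaks. After the recovered summit pileups were thinned to the background of the shallowest library and peaks with a −log10 p under 5 were dropped, 51.1% of 8341 Hoxb1b sites and 39.9% of 10757 Meis2b sites were shared. The same filter without thinning gave 34.9% and 65.4%. With 10000 peaks taken from each library the shares were 51.1% and 54.4%. The share of a factor's sites that was shared therefore ranged widely with the peaks admitted, and which factor had the larger share reversed on thinning and when either Meis2b library was left out. In those settings the Meis2b list of sites was the longer one. The order of the shares thus followed list length and is no separate result about the factors. Leaving out Meis2b replicate 2, so that all peaks of replicate 1 counted as sites, gave 51.5% and 29.3%, and leaving out Meis2b replicate 1 gave 44.2% and 33.5%. Without Hoxb1b replicate 1 the shares were 16.8% and 70.0%, and without Hoxb1b replicate 2 they were 15.1% and 76.6%.

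Sites that were not shared fell into 2 kinds. At 12320 Hoxb1b sites (39.2%) neither Meis2b library had a peak, and these are called Hoxb1b-only. A further 8513 (27.1%) overlapped Meis2b peaks that made no Meis2b site there, 475 of them with non-overlapping peaks from both libraries. On the Meis2b side, 2987 sites (18.2%) had no Hoxb1b peak in either library and are called Meis2b-only, and 2765 (16.8%) had Hoxb1b peaks that made no site there. The deeper library of the other antibody supplied more of these unmatched peaks. Of the 20833 unshared Hoxb1b sites, 27.0% held a peak of Meis2b replicate 1 and 16.1% a peak of replicate 2. Of the 5752 unshared Meis2b sites, 34.1% held a peak of Hoxb1b replicate 1 and 16.2% a peak of replicate 2.

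Few shared Hoxb1b sites overlapped by little, and few Hoxb1b-only or Meis2b-only sites lay just outside a site of the other factor. Sites with unmatched peaks of the other factor are not covered by these values. The overlap at shared Hoxb1b sites had a median of 375 bp, and 45 sites (0.423%) overlapped by less than 50 bp. From Hoxb1b-only sites the median gap to the nearest Meis2b site was 23527 bp, with 34 sites within 50 bp and 29.1% within 10000 bp. Meis2b-only sites lay nearer to the other factor, at a median of 11886 bp from a Hoxb1b site, with 13 sites within 50 bp and 45.1% within 10000 bp. Hoxb1b sites were the more numerous list, and the part of that number in the shorter gap was not tested. By chromosome, the share of Hoxb1b sites that was shared ran from 29.4% on chromosome 4 to 37.2% on chromosome 13, and that of Meis2b sites from 60.4% on chromosome 22 to 68.2% on chromosome 5. Shared regions were sparsest on chromosome 4, at 4.38 per Mb, and densest on chromosome 23, at 9.85 per Mb. Of 5571 windows of 100000 bp with a shared region the median held 1 and 354 held at least 5. The fullest, chosen after its count was seen, was chr10:16800001-16900000 with 18 shared regions, 25 Hoxb1b sites and 20 Meis2b sites.

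Shared sites carried the stronger peaks of both factors. In Hoxb1b replicate 1 the median fold enrichment, the authors' ratio of a summit to its local background, was 7.09 at shared sites, 5.55 at sites with unmatched Meis2b peaks and 4.84 at Hoxb1b-only sites. Hoxb1b replicate 2 had medians of 7.01, 5.63 and 5.09. The Meis2b medians fell in the same order, 7.15, 5.85 and 5.36 in replicate 1 and 6.82, 5.57 and 5.39 in replicate 2. When the sites of a list were ranked by the authors' p and divided into 10 equal bins, 88.8% of the strongest bin and 8.11% of the weakest were shared in Hoxb1b replicate 1, against 88.2% and 11.6% in replicate 2. In Meis2b replicate 1 the strongest and weakest bins were shared at 92.1% and 42.4%, and in replicate 2 at 91.7% and 43.5%. At the top of the lists the factors were thus alike in how often they shared a site, and they parted below it. The bins of a list average to its overall share, 33.8% of 31462 Hoxb1b sites and 65.0% of 16427 Meis2b sites. With like top bins the lower bins therefore had to differ, and the parting is no separate result about the factors. A fall with strength was not particular to this pair. Sox3 atRA sites overlapped 99.1% of the strongest and 45.9% of the weakest bin in Hoxb1b replicate 1, and 99.1% and 53.5% in replicate 2. For Meis2b the shares were 92.9% and 56.0% in replicate 1 and 91.6% and 60.4% in replicate 2. Shared sites were also wider, with a median of 511 bp against 334 bp at Hoxb1b-only sites and 430 bp against 303 bp at Meis2b-only sites.

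**Figure D1:**
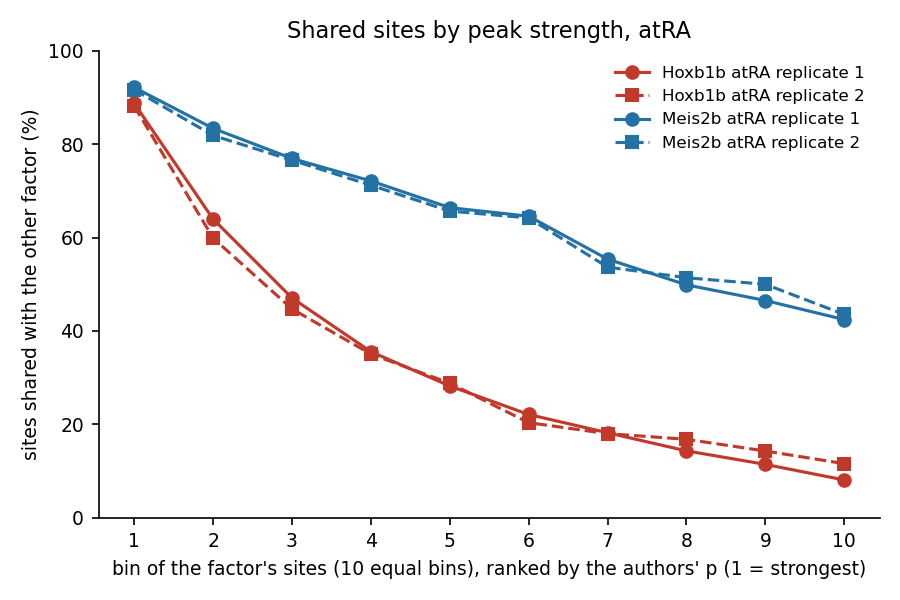
Share of sites that overlap a site of the other factor (%, vertical axis) by strength within each library, in 10 equal bins with the strongest at the left, with Hoxb1b in red and Meis2b in blue (circles and solid lines replicate 1, squares and dashed lines replicate 2). All 4 libraries start between 88.2% and 92.1%, and the Hoxb1b lines end at 8.11% and 11.6% while the Meis2b lines end at 42.4% and 43.5%.

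Within the 10515 shared regions, the strength of a factor followed its own replicate more closely than the other factor. Across regions, the log2 fold enrichment of the 2 Hoxb1b libraries correlated with Pearson's r = 0.751 and that of the 2 Meis2b libraries with r = 0.721. The 4 Hoxb1b and Meis2b pairs gave r between 0.489 and 0.528. These are descriptions across regions, which are not replicates, and the regions share the chromatin background of the embryos.

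The 4 strongest shared regions, taken by the worst rank over the 4 libraries, were of different kinds. At chr17:53292572-53292884 fold enrichment was 29.4 and 33.3 in Hoxb1b replicates 1 and 2 and 34.9 and 37.9 in Meis2b replicates 1 and 2. At chr20:4437636-4438055 the values were 33.7, 34.9, 37.0 and 35.1 in the same order. Both regions had a peak in all 12 other gastrula libraries, controls included, at fold enrichments of 22.2 to 36.3 and of 26.6 to 39.4. They therefore did not tell apart antibody or treatment. In all, 463 shared regions (4.40%) had a peak in each of the 12 other libraries. Leaving out the 488 merged regions called in all 16 libraries gave shared portions of 32.8% of Hoxb1b sites and 63.9% of Meis2b sites.

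The next 2 regions had higher Hoxb1b and Meis2b summit pileups and fold enrichments in atRA than in control. At chr7:25034902-25035797 the fold enrichment was 13.7 and 16.5 for Hoxb1b and 14.4 and 15.4 for Meis2b, from summits covered by 181, 164, 184 and 165 fragments. The control libraries of both antibodies had peaks there with summits of 10, 10, 12 and 12 fragments. Their fold enrichments were 7.72, 7.63, 9.40 and 9.10. At chr12:8417775-8418601 the fold enrichment was 16.5, 16.9, 16.6 and 18.8, from summits of 148, 118, 168 and 146 fragments. Its control summits were 21 and 7 fragments for Hoxb1b and 28 and 22 for Meis2b. The control fold enrichments were 11.3 and 5.55 for Hoxb1b and 12.4 and 12.6 for Meis2b. In both regions each atRA library of Hoxb1b and Meis2b stood above each of their control libraries, in fragments and in fold enrichment. The backgrounds were unequal as given above. Fold enrichment was (k+1)/(b+1), with k the summit pileup and b the local background. The added 1 lowers it more, relative to k/b, in a shallow library. The order in fold enrichment therefore does not stand apart from depth. These regions were chosen by rank in the atRA libraries, which favours high atRA values, so the difference is a description. At the chr7 region the summits were 150 and 147 fragments for Sox3 atRA and 16 and 35 for its controls. For RARaa they were 102 and 61 in atRA and 8 and 7 in control. Fold enrichment there was 14.7 and 14.8 in atRA and 10.9 and 13.4 in control for Sox3. For RARaa it was 12.8 and 16.7 in atRA and 5.41 and 4.15 in control. At the chr12 region Sox3 had summits of 135 and 133 fragments in atRA and of 38 and 57 in control. Its fold enrichment was alike, 14.3 and 14.7 in atRA and 14.9 and 14.4 in control. RARaa had 33 and 12 there in atRA, and 14 in control replicate 2 with no peak in replicate 1.

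The strongest single-factor sites, by worst rank over the 2 libraries of their factor, differed in how many other libraries had a peak there. At chr14:25879820-25880688 Hoxb1b fold enrichment was 12.9 and 12.4, and 11 of the 12 other libraries had a peak. At chr14:34184271-34184890 it was 15.0 and 16.8, with the summit at the same base in both replicates, and 5 of the 12 other libraries had a peak. At chr22:35217909-35218704 it was 12.4 and 11.7, with 11 of 12 others. The nearest Meis2b atRA peak to these sites was 2897, 3218 and 3389 bp away. Meis2b control peaks did overlap the chr14:25879820-25880688 site (replicate 1, fold enrichment 4.45) and the chr22 site (replicates 1 and 2, 5.48 and 6.02).

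Among Meis2b-only sites, chr8:8311227-8311919 had fold enrichments of 15.5 and 18.2, and 4 of the 12 other libraries had a peak there, the Meis2b controls and Sox3 atRA. At chr4:25637335-25638009 the values were 21.0 and 21.4, with peaks in 5 of 12 others. At chr5:67207900-67208354 they were 18.0 and 19.9, and the 2 Meis2b control libraries were the only others with a peak. None of these 3 regions had a peak in either RARaa atRA library. The nearest Hoxb1b atRA peak lay 1028, 3171 and 6722 bp away.

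Sox3 and RARaa peaks separated the classes further. Sox3 atRA replicates 1 and 2 had a peak at 95.4% and 95.5% of shared Hoxb1b sites and at 69.9% and 70.0% of Hoxb1b-only sites. At Meis2b-only sites they had one at 33.0% and 33.4%, while over all merged gastrula regions the shares were 22.6% and 21.8%. RARaa atRA replicate 1, a deep library, had a peak at 89.5%, 73.2% and 35.8% of the 3 classes against 43% of all regions. RARaa atRA replicate 2 had one at 56.8%, 26.7% and 8.17% against 10.3%. Meis2b-only sites thus held RARaa peaks at a share below that of all gastrula regions in both atRA libraries, and Sox3 peaks at a share above it. The merged regions include each library's own peaks, so that its all-region share rises with the length of its list. RARaa atRA replicate 1 had the longest list, 254915 peaks. A merged region could also rest on a peak of 1 library, whereas a site needed peaks of both replicates. The parts of list length, interval width and this rule in these comparisons were not tested. In the control libraries of Sox3 the order of the classes was the same, with 75.4% and 82.1% at shared sites, 44.9% and 62.2% at Hoxb1b-only sites and 21.7% and 24.3% at Meis2b-only sites. Over all merged regions these libraries had a peak at 17.5% and 18.1%, near the Meis2b-only values.

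Sites of Sox3 or RARaa, called in both atRA replicates, gave the same order. A Sox3 site overlapped 93.0% of shared Hoxb1b sites, 59.3% of Hoxb1b-only sites and 23.2% of Meis2b-only sites. Neither a Sox3 nor a RARaa site was present at 5.81% of shared Hoxb1b sites, 35.1% of Hoxb1b-only sites and 73.8% of Meis2b-only sites. Over whole lists the factors were close to each other, since 76.6% of Hoxb1b and 75.02% of Meis2b sites overlapped a Sox3 site and 38.7% and 39.6% overlapped a RARaa site. An exact two-sided permutation test between 2 antibodies with 2 libraries each has 6 arrangements and cannot pass 0.05. No test was run, and the shares are given as values.

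**Figure D2:**
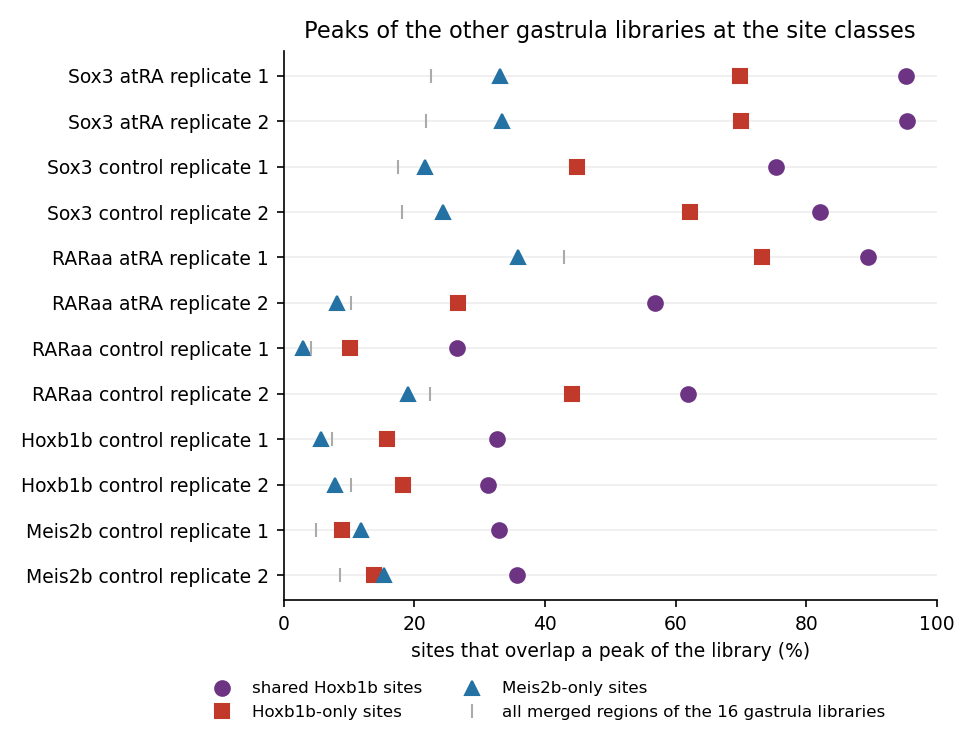
Share of sites (%, horizontal axis) that overlap a peak of each of the 12 other gastrula libraries, for shared Hoxb1b sites (circles), Hoxb1b-only sites (squares), Meis2b-only sites (triangles) and all 564183 merged regions (grey ticks). In both Sox3 atRA libraries the classes lie near 95%, 70% and 33%, and in both RARaa atRA libraries the triangles lie to the left of the grey ticks.

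Peak strength moved with these classes, so the shares were also taken within 5 equal bins of strength, over both libraries of the factor and both Sox3 atRA libraries. In the strongest bin of Hoxb1b sites a Sox3 peak was present at 99.0% to 99.1% of shared and 94.3% to 96.3% of Hoxb1b-only sites. In the weakest bin the shares were 79.5% to 88.2% and 54.9% to 58.4%. For Meis2b the classes stayed apart in every bin. In the strongest bin, 97.1% to 97.3% of shared sites but 23.6% to 31.2% of the 170 to 233 Meis2b-only sites held a Sox3 peak, and in the weakest bin 91.3% to 94.3% and 31.8% to 32.8%. RARaa atRA peaks were present at 66.7% to 92.8% of shared and 7.30% to 29.4% of Meis2b-only sites in the strongest bin. Strong Meis2b peaks without Hoxb1b were thus mostly also without Sox3, whereas strong Hoxb1b peaks without Meis2b mostly had Sox3. These classes were not filtered alike. Meis2b-only sites lacked a peak in the deeper Hoxb1b lists, and Hoxb1b-only sites lacked one in the shallower Meis2b lists. The part of depth in this contrast was not tested.

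**Figure D3:**
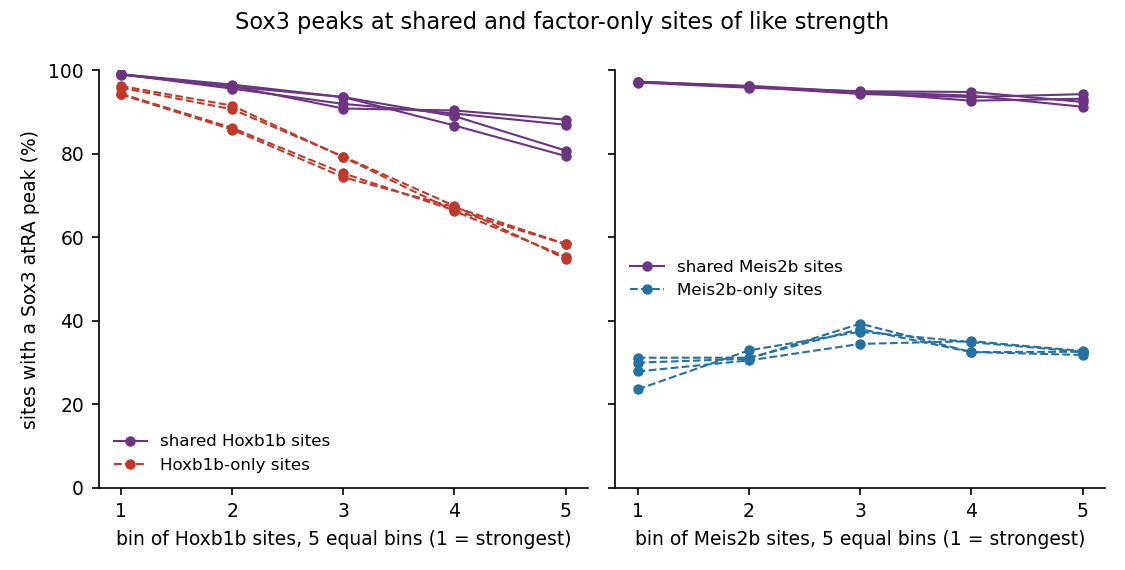
Share of sites with a Sox3 atRA peak (%, vertical axis) by strength in 5 equal bins, for Hoxb1b sites (left panel) and Meis2b sites (right panel), with shared sites as solid lines and factor-only sites as dashed lines, 1 line for each library of the factor and each Sox3 library. The dashed Hoxb1b lines start at 94.3% to 96.3% beside the shared sites, and the dashed Meis2b lines stay between 23.6% and 39.3% in every bin.

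The distance between the summits of the factors was close to the error of a summit. In each of the 10515 shared regions the strongest peak of each library was taken. The median distance was 56 bp between the Hoxb1b replicates and 58 bp between the Meis2b replicates. Between factors, the 4 library pairs gave medians of 62, 66, 64 and 68 bp. Summits lay within 50 bp of each other in 46.5% and 45.8% of regions between replicates and in 40.8% to 43.5% between factors. All between-factor pairs were farther apart than both replicate pairs, by 8 bp on average. An exact permutation test, one-sided, with 3 possible arrangements of the libraries, gave p = 0.333, the smallest p that it can give. Of the shared regions, 8172 (77.7%) had exactly 1 peak in each library. There the medians were 51 and 51 bp between replicates and 55 to 59 bp between factors. The rules for the pairs also differed. Peaks of the 2 replicates had to overlap to make a site, whereas a shared region needed only overlapping sites. The part of this rule in the 8 bp was not tested.

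**Figure D4:**
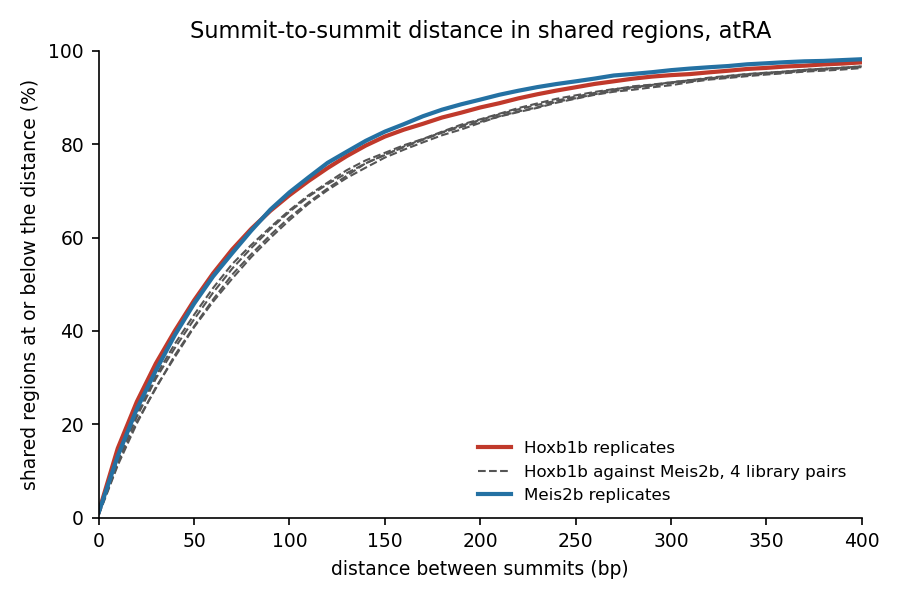
Cumulative share of the 10515 shared regions (%, vertical axis) by distance between the summits of 2 libraries (bp, horizontal axis), with replicate pairs as solid lines (Hoxb1b red, Meis2b blue) and the 4 pairs of Hoxb1b with Meis2b as dashed grey lines. The dashed lines run just below the solid ones, with medians of 62 to 68 bp against 56 and 58 bp.

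Summits were more precise at strong regions, and the between-factor distance shrank with them. In the first of 10 equal bins of regions, those with the best worst rank, the replicate medians were 27 and 28 bp and the between-factor medians 29 to 34 bp. In the weakest bin they were 79 and 69 bp, and 84 to 88 bp. The mean between-factor median was above the mean replicate median in all 10 bins, by 4.12 to 12.2 bp. The fragments of about 300 bp set a coarse scale for such distances, and the median distance does not resolve neighbouring binding sites.

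A part of the offsets recurred in separate library pairs. The signed offset of the Hoxb1b summit from the Meis2b summit was taken in both replicate 1 libraries and again in both replicate 2 libraries, and the 2 offsets correlated across regions with r = 0.283. With the replicate numbers crossed, r was 0.266. By rank the correlations were lower, with Spearman's rho of 0.162 and 0.151. The offset of replicate 1 from replicate 2 of Hoxb1b correlated with that of Meis2b at r = 0.0191 (rho = 0.0089). Where both offsets were at least 100 bp, they pointed to the same side in 65.5% of 1849 regions and 64.9% of 1827, against 51.7% of 1294 for the replicate offsets. Regions are not independent replicates, and these values carry no test.

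Regions with precise summits showed both arrangements. In 756 regions the 2 replicate distances were at most 20 bp for each factor. All 6 distances were at most 20 bp in 283 of these (37.4%), and in 60 (7.94%) the factors lay at least 100 bp apart in all 4 pairs. The first of the latter by rank was chr8:34831328-34832813, where the Hoxb1b summits at 34831801 and 34831796 and the Meis2b summits at 34832672 and 34832665 were 864 to 876 bp apart. Each Hoxb1b library also had a weaker peak there, with its summit at 34831411 and 34831414, farther from the Meis2b summits. The stronger Hoxb1b peaks ran on to 34832803 and 34832804 and so spanned the Meis2b summits. All 12 other libraries had a peak in that region of 1486 bp. At chr20:30876853-30877499 the summits were 116 to 123 bp apart, with replicate distances of 6 and 1 bp. At chr7:35591326-35592332 they were 104 to 132 bp apart, with replicate distances of 15 and 13 bp. Of the 60 regions, 37 had exactly 1 peak in each library. The rule for these regions used the distances, which are therefore given as a description.

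Hoxb1b summits lay nearer to Sox3 summits than to Meis2b summits. In the 5826 regions called in all 8 atRA libraries, the mean of the library pair medians was 63.25 bp for Hoxb1b with Meis2b (range 60 to 67 bp), 52.25 bp for Hoxb1b with Sox3 (49 to 56 bp) and 60.25 bp for Meis2b with Sox3 (57 to 64 bp). The Hoxb1b and Sox3 distance was thus as small as that between Hoxb1b replicates, 52.5 bp. With RARaa the means were 64.1 bp for Hoxb1b (57 to 71 bp) and 75.5 bp for Meis2b (67 to 85 bp). Hoxb1b summits were thus about as far from RARaa summits as from Meis2b summits. The Sox3 replicates were 36 bp apart, the Meis2b replicates 56 bp and the RARaa replicates 67 bp. The precision of a summit thus differed between antibodies, and its part in these distances was not tested.

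Overlap per library pair was compared on the 10000 strongest peaks of each list. In atRA the Hoxb1b replicates overlapped at 65.0% and the Meis2b replicates at 61.2%. Pairs of Hoxb1b with Meis2b overlapped at 49.4%, 47.7%, 46.6% and 45.0%. Replicates overlapped more than the factors did by 15.9 percentage points, and the exact one-sided permutation test gave p = 0.333, the smallest of its 3 arrangements. The excess was 10.5 points for peaks with a q of at most 1e-05 and 6.04 points with all peaks. In control embryos the 4 pairs of the factors overlapped at 9.46%, 10.035%, 8.66% and 9.20%, beside 10.1% for the Hoxb1b replicates and 15.2% for the Meis2b replicates. Without atRA, the factors thus overlapped about as much as the Hoxb1b replicates did.

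The mean overlap of the factors was 47.2% ± 1.85 (SD over 4 library pairs from 4 libraries) in atRA and 9.34% ± 0.569 in control. The difference of 37.9 percentage points gave p = 0.0556 in an exact two-sided permutation test over 36 arrangements, the smallest p that it can give, so it could not pass 0.05. All atRA pairs of Hoxb1b with Meis2b were above all their control pairs. Such a rise was not particular to these 2 factors. Pairs of Hoxb1b with Sox3 overlapped at 10.8% to 14.6% in control and 52.0% to 56.3% in atRA. Those of Hoxb1b with RARaa overlapped at 8.38% to 12.6% in control and 37.4% to 46.4% in atRA. Depth moved with the treatment, since the backgrounds were 0.256 to 0.910 in atRA and 0.199 to 0.286 in control. The overlap of replicates moved with it too, at 10.1% in control and 65.0% in atRA for Hoxb1b and 15.2% and 61.2% for Meis2b. Its part in the difference between treatments was not tested. With the summit pileups of all 8 libraries thinned to the lowest background, the 10000 strongest peaks overlapped at 32.3% ± 1.60 in atRA and 8.18% ± 1.07 in control, a difference of 24.1 points with the same p. With all peaks the difference was 18.7 points, and with the 1000 strongest 24.8. Thinning acts on called summits only, and other differences between the libraries were not tested.

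**Figure D5:**
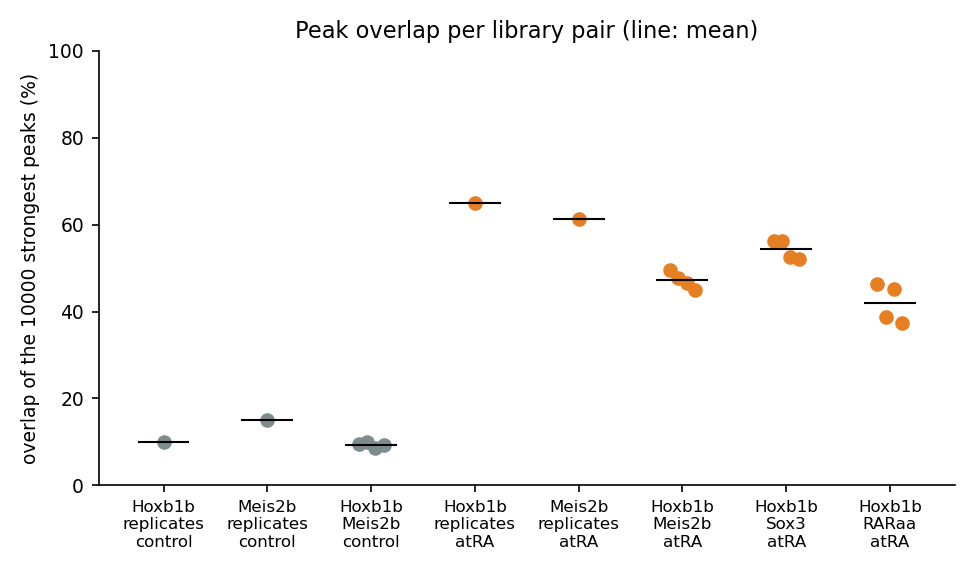
Overlap of the 10000 strongest peaks (%, vertical axis) for each pair of libraries, with replicate pairs of a factor beside pairs of factors, grey for control and orange for atRA, and a line at the mean. The 4 control pairs of Hoxb1b with Meis2b lie between 8.66% and 10.035% and the 4 atRA pairs between 45.0% and 49.4%, with Hoxb1b and Sox3 in atRA above them at 52.0% to 56.3%.

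Meis2b was not the factor whose strongest peaks overlapped Hoxb1b most. Hoxb1b with Sox3 overlapped at 54.3% ± 2.30 (SD, 4 library pairs) in atRA, so that the Meis2b overlap was lower by 7.11 percentage points, a difference of -7.11. Hoxb1b with RARaa overlapped at 41.9% ± 4.51, which put Meis2b 5.26 points higher. Each comparison gave p = 0.333 in an exact two-sided permutation test of 6 arrangements, the smallest it can give, and 0.333 after adjustment over the 2. Both directions depended on the peaks admitted. With the 1000 strongest peaks Meis2b was above Sox3 by 4.68 points, and with all peaks Meis2b was below RARaa, at -0.262 points. With the 1000 strongest it was above RARaa by 18.9 points. The RARaa difference was 1.41 points without RARaa atRA replicate 2 and 9.10 without RARaa atRA replicate 1.

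Many shared regions were called in control embryos too, though seldom in every library. Of the 10515 shared regions, 3365 (32.0%) had no peak in any of the 4 control libraries of the factors, and 807 (7.67%) had a peak in all 4. A control peak of Hoxb1b alone was present at 1941 (18.5%), of Meis2b alone at 2018 (19.2%) and of both at 3191 (30.3%). In 1887 regions (17.9%) the 4 control libraries had no peak while both Sox3 control libraries had one. At single libraries, Hoxb1b control replicates 1 and 2 had a peak at 32.6% and 31.2% of shared Hoxb1b sites, 15.8% and 18.2% of Hoxb1b-only sites and 5.66% and 7.83% of Meis2b-only sites, against 7.36% and 10.2% of all merged gastrula regions. Meis2b control replicates 1 and 2 had one at 33.0% and 35.8%, 8.94% and 13.8%, and 11.8% and 15.4% of the same classes, against 4.95% and 8.65% of all regions. Each of these control antibodies thus had peaks at a larger share of the single-factor sites of its own factor than of the other, in both replicates. For Hoxb1b this was not particular to its antibody. RARaa controls had peaks at 10.1% and 44.1% of Hoxb1b-only sites against 2.91% and 19.1% of Meis2b-only sites. Sox3 controls had them at 44.9% and 62.2% against 21.7% and 24.3%. Only the Meis2b controls had the larger share at Meis2b-only sites. For Meis2b control replicate 2 the 95% Wilson intervals overlapped, 14.1% to 16.7% at Meis2b-only and 13.2% to 14.5% at Hoxb1b-only sites. The Hoxb1b controls lay below their all-region share at Meis2b-only sites, and the Meis2b controls lay above theirs at Hoxb1b-only sites.

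In control embryos 14.7% of 6679 Hoxb1b sites and 17.4% of 5619 Meis2b sites were shared, and the sites formed 970 regions with both factors. Of these, 673 (69.4%) overlapped a region with both factors in atRA. Their median summit distances were 59 and 53 bp between replicates and 55.5 to 65 bp between factors. The control ranges overlapped, whereas in atRA every between-factor median was above both replicate medians. The lists of control and atRA are of unequal depth, and an absent peak in a shallow list is not an absent factor.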

How the data were processed

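ChIPmentation (ChIP-seq with adapters inserted by the Tn5 transposase) was done on whole embryos with chromatin of about 300 bp, per the labels' protocols. The labels gave the antibody, treatment and replicate of each library. Bowtie, SAMtools, MACS2 and the build GRCz10 (danRer10) are named in the submitters' processing notes, with no versions. Whether duplicates were removed or an input library was used is not given in the sources used here. The deposited lists are 1 narrowPeak list per library, with a single name prefix within each, and hold for every peak the authors' fold enrichment (a ratio over local background), −log10 p, −log10 q and summit offset. These are the authors' values and were used to rank and describe peaks within a list. For named regions they are set side by side. In the Sox3 controls, labelled replicates 1 and 2, the prefix of either list is numbered 2. Their contents differ (63.8% overlap between the 10000 strongest peaks), so each was treated as its own library.

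Sites, overlaps and summit distances were computed with numpy 2.4.6, pandas 2.3.3 and scipy 1.17.1, with a minimum overlap of 1 bp. Peaks outside the chromosomes (1.73% to 2.56% of a library) were left out. The lists give no read totals. Pileup k and background b were recovered from fold = (k+1)/(b+1) and a Poisson p, which solved 100% of peaks to within 0.002 in −log10 p, and the 0.001 quantile of b served as the depth index. Ties in rank were drawn at random with a fixed seed. The functions were tested on simulated data.

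Named regions were the 4 shared regions, the 3 Hoxb1b-only sites and the 3 Meis2b-only sites with the best worst rank, and the 3 best ranked regions with replicate summits within 20 bp and the factors at least 100 bp apart. The regions, lists and tests were chosen with earlier results of these data known. Motif searches and lists of genes near the sites are not analysed here, for want of a genome and annotation of this build. The 4 RARaa libraries of later stages were not used. Shares carry 95% Wilson intervals, and the alternatives are given in the closing section.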

Additional observations from a re-analysis of the deposited data

Results flagged for a closer look

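Sequences outside chromosomes 1 to 25, which the comparisons did not use, also held shared sites. In atRA 239 of 793 Hoxb1b sites there (30.1%) overlapped a Meis2b site, above the 70 of 199 (35.2%) in control by number but not by share.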

How the results depend on the processing

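The shares of Hoxb1b and of Meis2b sites that were shared moved with the peaks admitted. They were 37.4% and 65.6% at a q of at most 1e-05, 51.1% and 54.4% with the 10000 strongest peaks, and 52.3% and 52.4% with the 1000 strongest. They were 33.2% and 63.8% with an overlap of 50% of the shorter site, 23.1% and 44.2% with summits within 100 bp, and 51.1% and 39.9% after thinning to equal background. In alternatives chosen after seeing the data, leaving out regions called in all 16 libraries gave 32.8% and 63.9%, and the −log10 p filter of the thinned lists without thinning gave 34.9% and 65.4%. Leaving out 1 library gave 15.1% to 51.5% and 29.3% to 76.6%. The thinned lists hold fewer Hoxb1b than Meis2b sites, the reverse of the full lists. Adding all sequences or leaving out chromosome 4 kept both shares within their counting intervals.

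The summit separation of 8 bp ranged from 6 to 8 bp over its alternatives and from 6 to 11 bp with 1 library left out. The excess of replicate overlap ranged from 6.04 to 15.98 points and from 12.7 to 18.7. The atRA minus control difference in overlap ranged from 18.7 to 38.4 points and from 36.5 to 39.2. It was 24.1 points after thinning all 8 libraries, chosen after seeing the data. The Meis2b minus Sox3 difference reversed to 4.68 points with the 1000 strongest peaks and ranged from -7.94 to -6.27 with 1 library left out. The Meis2b minus RARaa difference reversed to -0.262 points with all peaks, and ranged from 1.41 to 9.10 with 1 library left out. The cause of either reversal was not tested.

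The replicate differences in log2 fold enrichment of Hoxb1b and Meis2b correlated at r = 0.0232, so peak strength gave no sign of pairing by replicate number. This value cannot show whether libraries of the same number shared a clutch, which the labels do not say. With a replicate block the same values were 8 bp, 15.98, 37.9, -7.30 and 5.16 points, each with p = 0.5 in the exact permutation test, the smallest that the block allows. The lists give no read totals, so a region without a peak cannot be told from one below the reach of its library.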
